A study of Mus musculus with 6 samples.

Results

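The liver X receptor genes and their cholesterol efflux targets were followed in the RAW264.7 line, which derives from mouse and resembles macrophages. The group was a list of 10 genes named by symbol, of which 7 had a row in the deposited expression table and all 7 of those were tested, out of 10014 genes tested and 10780 in the table. These were Nr1h2, Abcg1, Pltp, Mylip, Lpcat3, Srebf1 and Lpl. Nr1h3, Rxra and Abca1 were not analysed here. Gene expression had been measured by RNA sequencing in 3 groups of 2 libraries each. One group received LPS (lipopolysaccharide, the bacterial cell wall component sensed by Tlr4) at 10 ng/ml together with Sal-B at 50 μmol/L. The next received LPS at 10 ng/ml without Sal-B, and the control group received neither. All groups were the same line, which is a single cell line and not a population of primary macrophages. The labels carry replicate numbers 2 and 3, give no treatment time, do not spell out Sal-B and do not say whether each library came from its own culture. The p-values therefore reflect the spread among libraries, which may be technical. Sal-B on its own was not among the groups analysed.

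Liver X receptors are nuclear receptors that bind oxysterols, the oxidised forms of cholesterol, and act on DNA as heterodimers with retinoid X receptors. In macrophages loaded with cholesterol they switch on transporters that pass sterol to lipoproteins, an E3 ubiquitin ligase that limits lipoprotein uptake, and genes that remodel membrane phospholipids and make fatty acids. Signals from Toll-like receptors are known to interfere with part of this program in mouse macrophages.

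Promoter windows from RefSeq (build GRCm38.p6, 250 bases before to 50 after each start) were taken for 5 of the 7 genes, with 3 starts for Srebf1, making 7 windows. None was used for Abcg1 and Lpl. The windows were searched on both strands for the direct repeat bound by liver X receptors, in which the letters AGGTCA stand 2 times in the same direction with 4 free bases between. With at most 2 mismatches in its 12 fixed letters, 0 of the 7 windows held a match, against 3.02% of 32851 promoters. With 3 mismatches allowed, a setting chosen after the sequences were seen, 1 window held a match, against 21.9% of all promoters. That window belongs to the most downstream of the Srebf1 starts, and on the opposite strand the match reads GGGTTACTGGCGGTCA. It is shown because the promoter of the Srebf1 isoform called SREBP-1c is known to carry such an element. None of the 7 windows held the sterol regulatory element or the κB element with at most 1 mismatch (1.95% and 2.72% of all promoters), or the E-box CACGTG (7.15%). The letters TATAAA, added after the sequences were seen, were in the windows of Pltp and Mylip and in 13.6% of all promoters. The run began at offset 36, after the start, in Pltp and at −32, before it, in Mylip. Nr1h2 and Lpcat3 also fell with LPS and their windows lacked these letters, so no link to the fall is read. The windows of Pltp and Mylip are shown. Capitals mark the direct repeat in Srebf1 and TATAAA in the others, and each run is given 5′ to 3′ on the strand of its gene.
Srebf1, chr11:60210422-60210721, minus strand: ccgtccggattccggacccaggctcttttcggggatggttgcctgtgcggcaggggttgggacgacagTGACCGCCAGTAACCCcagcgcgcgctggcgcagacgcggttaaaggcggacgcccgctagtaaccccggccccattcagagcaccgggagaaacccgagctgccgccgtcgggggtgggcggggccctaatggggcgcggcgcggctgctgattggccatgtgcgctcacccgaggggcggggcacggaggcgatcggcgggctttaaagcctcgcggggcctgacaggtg
Pltp, chr2:164857659-164857958, minus strand: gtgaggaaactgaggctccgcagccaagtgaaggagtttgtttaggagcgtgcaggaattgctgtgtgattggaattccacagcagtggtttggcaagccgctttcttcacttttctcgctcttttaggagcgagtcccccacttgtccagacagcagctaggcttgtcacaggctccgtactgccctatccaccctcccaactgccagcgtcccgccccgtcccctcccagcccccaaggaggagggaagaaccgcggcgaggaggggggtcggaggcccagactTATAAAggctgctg
Mylip, chr13:45389492-45389791, plus strand: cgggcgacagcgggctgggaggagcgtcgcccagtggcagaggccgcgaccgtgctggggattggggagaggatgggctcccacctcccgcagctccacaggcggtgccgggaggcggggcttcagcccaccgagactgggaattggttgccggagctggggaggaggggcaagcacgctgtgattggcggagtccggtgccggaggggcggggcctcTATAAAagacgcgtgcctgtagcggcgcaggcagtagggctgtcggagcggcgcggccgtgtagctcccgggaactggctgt
A match describes letters only, and its absence says nothing about binding outside these windows.

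The libraries held 8639 to 9847 genes at 1 FPKM or more, with FPKM totals of 309767 to 374371. FPKM divides the fragments of a gene by its length and by the size of the library. Read counts were not used here. The commonest low value of 964 genes with 1 transcript model put the depth roughly between 6441000 and 8888000 fragments. It rests on 3 to 11 values at that level in each library. Only low values inside a preset range were searched, which bounded the result in advance, so it is not a measured depth. The macrophage genes used as an identity check had 8 of 9 members in the table, with Cd68 the highest in all 6 libraries. Their summed level was 717 to 731 FPKM with LPS plus Sal-B, 1549 with LPS in both libraries and 1449 to 1926 in control. Between the treated groups the genes did not all move together. Cd68 read 392 and 395 with LPS plus Sal-B against 897 and 915 with LPS, and Spi1 43.5 and 46.0 against 58.1 and 56.4. Itgam read 26.5 and 25.9 against 18.1 and 17.2 in one row and overlapped in its other row, which was also summed. Every other gene of the list was lower with LPS plus Sal-B. Fibroblast, T cell, B cell and epithelial marker lists had 0 members in the table, and the endothelial list had 1 of 4, Pecam1. The table lists only genes above a minimum level (the lowest value of its highest group mean was 0.50 FPKM), so a gene with no row is given no level. The 6 inflammatory genes used as a check of the LPS label (Ccl2, Il1b, Il6, Nos2, Ptgs2 and Tnf) summed to 704 to 716 FPKM with LPS plus Sal-B, 1587 to 1590 with LPS and 26.4 to 43.9 in control. Nos2 was higher with LPS plus Sal-B than with LPS, at 125 and 127 FPKM against 101 and 97.1. The others were lower by unlike amounts, from Ptgs2 at 458 and 466 against 667 and 652 to Ccl2 at 15.6 and 16.5 against 325 and 328.

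LPS-treated cells had less transcript of the sterol exporter gene Abcg1, the phospholipid transfer protein gene Pltp, the ubiquitin ligase gene Mylip, the acyltransferase gene Lpcat3 and the receptor gene Nr1h2 than control cells. The means with LPS stood at 21.4% of the control mean for Abcg1, 23.7% for Mylip, 36.0% for Pltp, 47.9% for Lpcat3 and 56.2% for Nr1h2. Lpl, the lipoprotein lipase gene, went the other way and stood at 338% of its control mean. With Sal-B present as well, these 6 genes remained on the same side of control, at 16.1% for Abcg1, 26.3% for Pltp, 27.7% for Mylip, 34.2% for Lpcat3, 58.7% for Nr1h2 and 449% for Lpl. For Nr1h2 the difference from control depended on how the libraries were scaled. Srebf1, which encodes the transcription factor SREBP-1, stood at 110% of its control mean with LPS plus Sal-B and 81.0% with LPS. In these bulk samples, fewer cells of a state and less RNA per cell cannot be told apart.

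**Figure D1:**
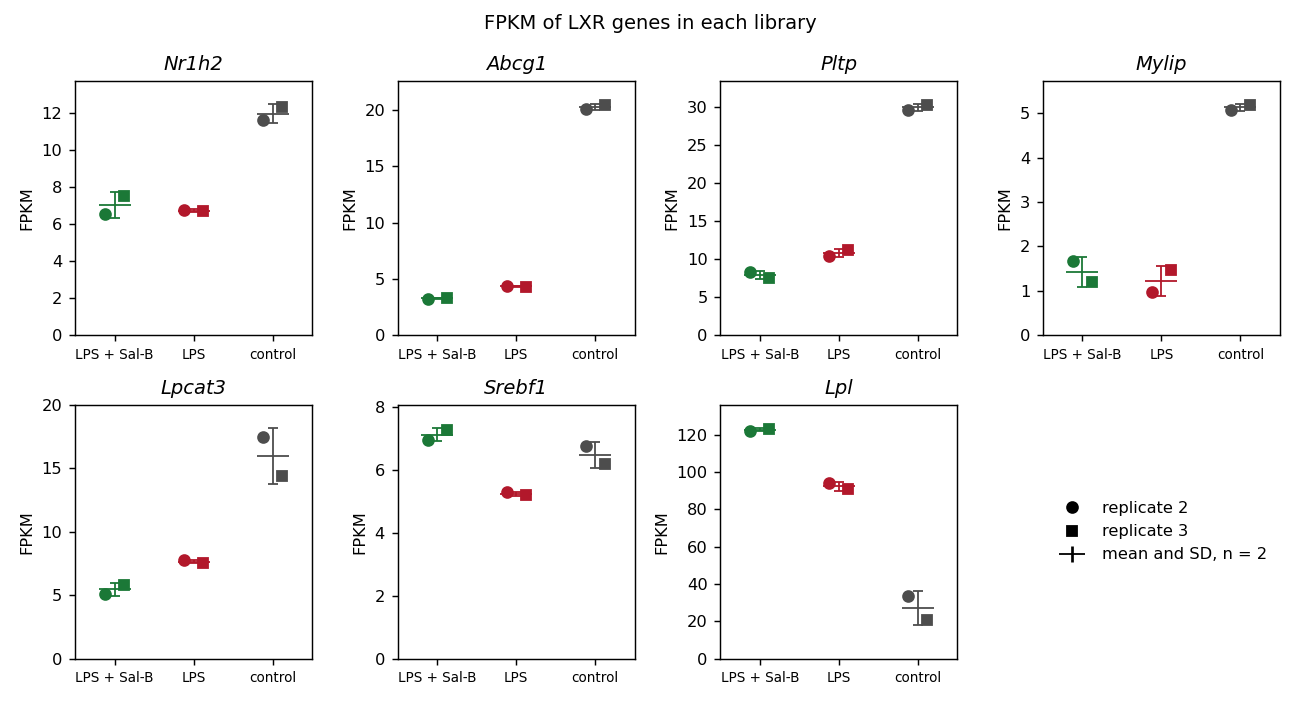
FPKM (vertical axis, from 0) of the 7 genes in the 2 libraries of each group, with LPS plus Sal-B left of LPS and LPS left of control; points are libraries, and the bar and whiskers are the mean and SD of n = 2. Both treated pairs of Abcg1, Pltp, Mylip, Lpcat3 and Nr1h2 lie below the control pair, and both treated pairs of Lpl lie above it.

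Nr1h2 (ENSMUSG00000060601.13, chr7:44549616-44553951, minus strand) encodes LXRβ, the receptor form found in most tissues. It read 6.53 and 7.51 FPKM with LPS plus Sal-B, 6.77 and 6.68 with LPS, and 11.6 and 12.3 in control. The treated groups overlapped each other, and neither overlapped control. The log2 fold change was −0.75 ± 0.10 (SE) for LPS over control (limma, adjusted p = 0.00213) and −0.69 ± 0.10 for LPS plus Sal-B over control (limma, adjusted p = 0.00190). Fold changes are on the log2(FPKM + 1) scale and understate the ratio of low genes, errors of fold changes are SE, and adjusted p-values are Benjamini-Hochberg over all 10014 genes. These calls moved with the scaling of the libraries. For LPS over control the value was −0.29 at the same median (limma, adjusted p = 0.0554), −0.37 under quantile normalization (limma, adjusted p = 0.0333) and −0.91 at the same FPKM total (limma, adjusted p = 0.000969). For LPS plus Sal-B over control it was −0.01 (limma, adjusted p = 0.923), −0.12 (limma, adjusted p = 0.371) and −0.63 (limma, adjusted p = 0.00301) in the same order. Between LPS plus Sal-B and LPS the value was 0.05 ± 0.10 (limma, adjusted p = 0.718).

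Abcg1 (ENSMUSG00000024030.6, chr17:31057698-31115777, plus strand) encodes a half-transporter that moves cholesterol to HDL particles. It read 3.23 and 3.28 FPKM with LPS plus Sal-B, 4.38 and 4.30 with LPS, and 20.1 and 20.5 in control. No 2 groups overlapped, and within each group the libraries lay close together. Its fall was the deepest of the 7 genes, −1.99 ± 0.09 for LPS over control (limma, adjusted p = 0.000144) and −2.32 ± 0.09 for LPS plus Sal-B over control (limma, adjusted p = 7.77e-05). Of all genes tested, 1.90% and 2.22% had a lower fold change in these comparisons. Adding Sal-B to LPS gave −0.33 ± 0.09 (limma, adjusted p = 0.0316).

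Pltp (ENSMUSG00000017754.13, chr2:164839518-164857711, minus strand) encodes the protein that moves phospholipids between lipoprotein particles. Its values were 8.29 and 7.49 FPKM with LPS plus Sal-B, 10.4 and 11.2 with LPS, and 29.6 and 30.2 in control. All 3 pairs were apart from one another. Pltp fell by 1.39 ± 0.10 on the log2 scale with LPS over control (limma, adjusted p = 0.000329) and by 1.80 ± 0.10 with LPS plus Sal-B over control (limma, adjusted p = 0.000104). Set against LPS, LPS plus Sal-B gave −0.41 ± 0.10 (limma, adjusted p = 0.0212). Ctsa, a lysosomal protease gene on the opposite strand, overlaps Pltp and read 89.6 and 94.1 FPKM with LPS plus Sal-B, 99.3 and 98.9 with LPS, and 162 and 180 in control. Whether strand was used in the authors' quantification is not given in the sources used here, so fragments of the overlapping ends cannot be told apart.

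Lpl (ENSMUSG00000015568.16, chr8:68880491-68907448, plus strand) encodes the enzyme that releases fatty acids from the triglyceride of lipoproteins. It read 122 and 123 FPKM with LPS plus Sal-B, 93.9 and 90.7 with LPS, and 33.8 and 20.9 in control. The control pair differed more than either treated pair, and no groups overlapped. Lpl rose by 1.76 ± 0.21 with LPS over control (limma, adjusted p = 0.00138) and by 2.17 ± 0.21 with LPS plus Sal-B over control (limma, adjusted p = 0.000424), and 97.9% and 99.0% of genes had a lower fold change. The value for LPS plus Sal-B over LPS stood at 0.41 ± 0.21 (limma, adjusted p = 0.180). That error pools the spread of the control pair: the adjusted p was 0.00108 when the 2 groups compared were fitted alone (limma). Only 3 of 17 alternatives passed, this fit and those without control replicate 2 or 3. None of the 3 scalings passed, with values of 0.65 to 0.68, nor did any fit without a treated library.

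Mylip (ENSMUSG00000038175.10, chr13:45389742-45412022, plus strand) encodes IDOL, a ubiquitin ligase that limits lipoprotein uptake. It was the lowest of the 7 genes in every group, at 1.66 and 1.19 FPKM with LPS plus Sal-B, 0.973 and 1.46 with LPS, and 5.08 and 5.19 in control. The treated groups overlapped, and both were below control. The fold changes were −1.48 ± 0.16 for LPS over control (limma, adjusted p = 0.000926), −1.35 ± 0.16 for LPS plus Sal-B over control (limma, adjusted p = 0.000749) and 0.13 ± 0.16 for LPS plus Sal-B over LPS (limma, adjusted p = 0.538). At the rough depth and its longest transcript these levels would correspond to about 22.4 to 139 fragments per library. That number is uncertain, because the depth was bounded in advance. On this scale Mylip had the fewest fragments of the 7 genes, so counting error is expected to be largest here.

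Lpcat3 (ENSMUSG00000004270.13, chr6:124663027-124704418, plus strand) encodes the acyltransferase that places polyunsaturated chains in membrane phospholipids. Its values were 5.12 and 5.80 FPKM with LPS plus Sal-B, 7.75 and 7.55 with LPS, and 17.5 and 14.4 in control. The 3 pairs did not overlap, the control pair being the widest. Lpcat3 fell by 0.97 ± 0.13 with LPS over control (limma, adjusted p = 0.00173) and by 1.39 ± 0.13 with LPS plus Sal-B over control (limma, adjusted p = 0.000324). The value for LPS plus Sal-B over LPS was −0.42 ± 0.13 (limma, adjusted p = 0.0432). Emg1, on the opposite strand, overlaps this locus and read 10.6 and 11.7 FPKM with LPS plus Sal-B, 16.9 and 15.4 with LPS, and 15.8 and 15.2 in control.

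Srebf1 (ENSMUSG00000020538.15, chr11:60199089-60222581, minus strand) encodes SREBP-1, which drives fatty acid synthesis. Gene-level FPKM does not separate its isoforms SREBP-1a and SREBP-1c, of which SREBP-1c is the known target of liver X receptors. It read 6.96 and 7.27 FPKM with LPS plus Sal-B, 5.28 and 5.20 with LPS, and 6.77 and 6.18 in control. The LPS pair was below both others. LPS plus Sal-B over LPS gave 0.38 ± 0.10 (limma, adjusted p = 0.0265), LPS over control −0.26 ± 0.10 (limma, adjusted p = 0.0594) and LPS plus Sal-B over control 0.12 ± 0.10 (limma, adjusted p = 0.299). Against control the result depended on scaling. For LPS over control the sign turned with libraries set to the same median (0.17) or quantile-normalized (0.19), and for LPS plus Sal-B over control the difference passed under both, at 0.78 and 0.76. Rai1, on the opposite strand, overlaps Srebf1 and read 4.91 and 3.50 FPKM with LPS plus Sal-B, 1.68 and 2.00 with LPS, and 3.18 and 2.53 in control.

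Across the list, 5 of 7 genes fell and 1 rose with LPS over control, where 48.9% of all genes tested fell, 14.2% rose and 63.1% were called in either direction. The libraries of the 2 groups did not overlap for 6 lower genes and 1 higher one, against 60.8% and 20.4% of all genes. The median of the 7 fold changes was −0.97, against −0.40 over all genes. With LPS plus Sal-B over control 5 fell and 1 rose, where 58.8% of all genes fell, 14% rose and 72.8% were called in either direction, with medians of −1.35 for the list and −0.63 for all genes. Groups did not overlap for 5 lower and 2 higher genes, against 67.9% and 19.2% of all genes. Between LPS plus Sal-B and LPS there were 3 falls (Abcg1, Pltp and Lpcat3) and 1 rise (Srebf1), where 31.8% of all genes fell, 10.5% rose and 42.3% were called in either direction, with medians of 0.05 for the list and −0.22 for all genes. Groups did not overlap for those 3 lower genes and for 2 higher ones, Srebf1 and Lpl, against 58.1% and 24.9% of all genes. Nothing particular to the list is read from these counts. The LPS pair is shared by 2 of the comparisons and the control pair by 2, so their fold changes are not independent.

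**Figure D2:**
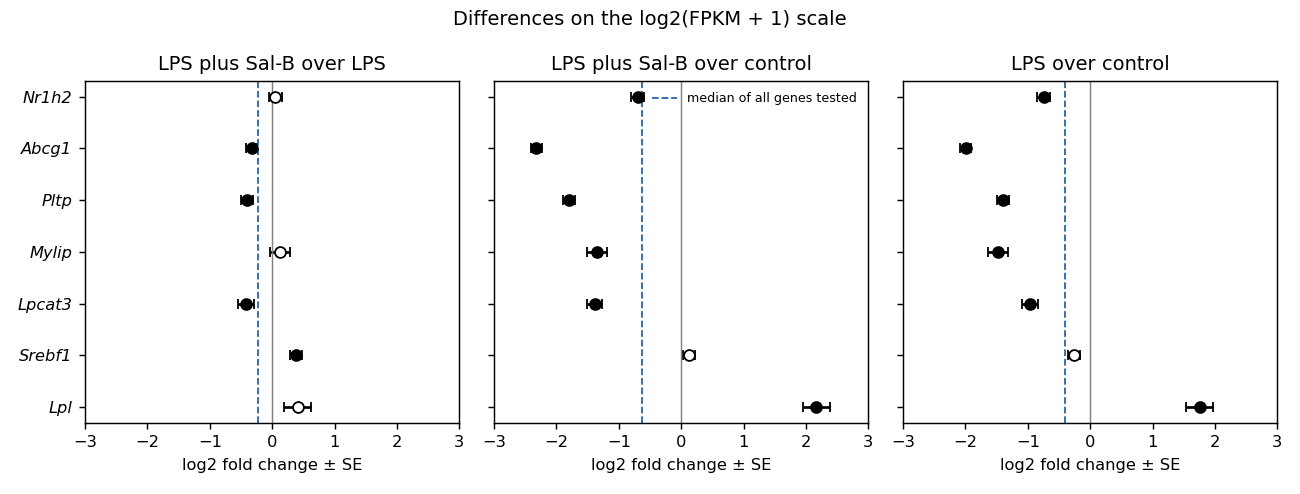
Log2 fold change on the log2(FPKM + 1) scale with SE (horizontal axis) of the 7 genes in each comparison, filled where adjusted p is under 0.05; the dashed line is the median of all genes tested. Abcg1, Pltp, Mylip and Lpcat3 lie left of that line against control, Lpl lies to its right, and in LPS plus Sal-B over LPS the 7 values lie between −0.42 and 0.41.

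Scaling bears on these directions, because the typical gene was lower in treated cells as deposited. Over all genes 1421 rose and 4898 fell with LPS over control, against 2898 and 2648 at the same median, 1088 and 5821 at the same FPKM total and 2416 and 2660 under quantile normalization. LPS plus Sal-B over LPS gave 1054 rises and 3184 falls as deposited, 1766 and 2024 at the same median, 1637 and 1730 at the same FPKM total and 1596 and 1631 under quantile normalization. LPS plus Sal-B over control gave 1399 and 5890 as deposited, 3179 and 3207 at the same median, 1509 and 5693 at the same FPKM total and 2933 and 3241 under quantile normalization. Relative to the median gene, LPS over control came to −1.59 for Abcg1, −1.07 for Mylip, −0.99 for Pltp, −0.56 for Lpcat3, −0.34 for Nr1h2, 0.14 for Srebf1 and 2.16 for Lpl. Relative to the median gene in LPS plus Sal-B over LPS, Abcg1, Pltp and Lpcat3 differed by −0.10, −0.18 and −0.20, and none of the 3 passed under any of the 3 scalings. Srebf1 passed under all 3, between 0.57 and 0.61.

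**Figure D3:**
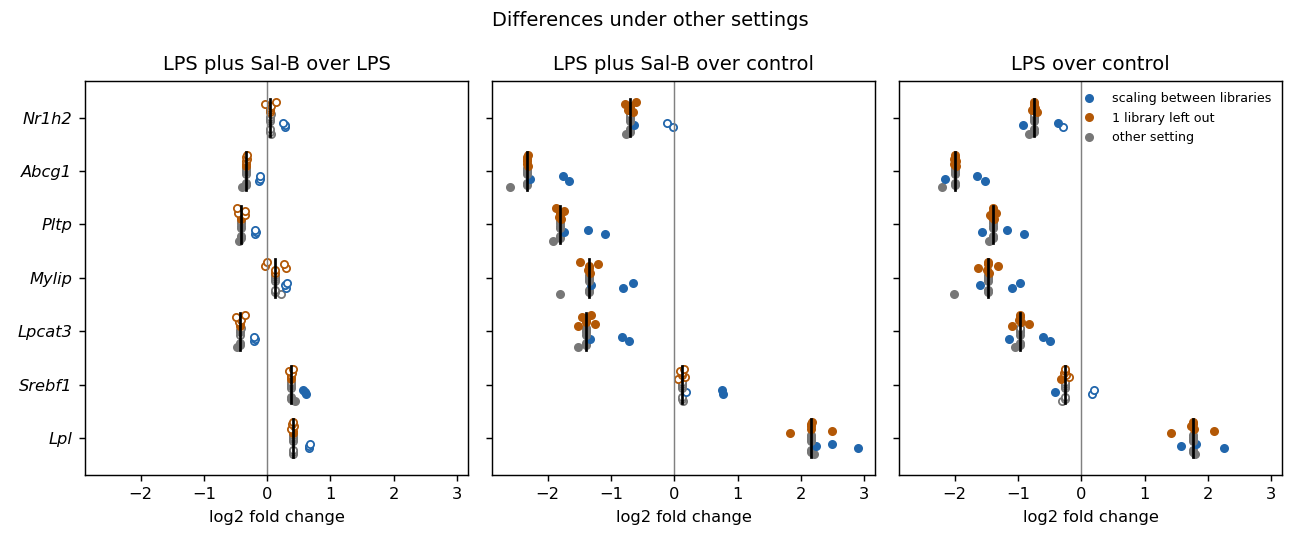
Log2 fold change (horizontal axis) of the 7 genes under each other setting but the 2-fold minimum, filled where adjusted p is under 0.05; the black bar is the value as reported. Against control the points of Abcg1, Pltp, Mylip, Lpcat3 and Lpl stay on 1 side of 0, and in LPS plus Sal-B over LPS the 4 calls are lost when any 1 treated library is left out.

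The calls of LPS plus Sal-B over LPS rest on all 4 treated libraries. Without any 1 of them the adjusted p ran from 0.114 to 0.196 for Abcg1, 0.0758 to 0.161 for Pltp, 0.122 to 0.241 for Lpcat3 and 0.107 to 0.178 for Srebf1 (LPS replicates 2 and 3 and LPS plus Sal-B replicates 2 and 3). The macrophage marker sum given above also differed between these 2 groups, though Itgam did not fall with the others. The part of these markers in the differences was not tested.

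The order of levels between genes differed between groups, FPKM being scaled to length. With LPS plus Sal-B, Lpl stood far above the rest at 123 ± 0.908 FPKM (SD, n = 2), followed by Pltp at 7.89 ± 0.569, Srebf1 at 7.12 ± 0.215, Nr1h2 at 7.02 ± 0.692, Lpcat3 at 5.46 ± 0.485, Abcg1 at 3.26 ± 0.0348 and Mylip at 1.42 ± 0.329. There the libraries of Nr1h2 overlapped those of Srebf1 and, narrowly, those of Pltp, while both Pltp libraries were above both Srebf1 libraries. With LPS the order was Lpl at 92.3 ± 2.27, Pltp at 10.8 ± 0.585, Lpcat3 at 7.65 ± 0.137, Nr1h2 at 6.73 ± 0.0652, Srebf1 at 5.24 ± 0.0599, Abcg1 at 4.34 ± 0.0580 and Mylip at 1.22 ± 0.347. In control cells Pltp led at 29.9 ± 0.420, with Lpl at 27.3 ± 9.09 within its spread, then Abcg1 at 20.3 ± 0.256, Lpcat3 at 16.0 ± 2.22, Nr1h2 at 12 ± 0.521, Srebf1 at 6.47 ± 0.417 and Mylip at 5.14 ± 0.0719. Abcg1 was the third highest of the 7 in control and the sixth in both treated groups.

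Among the 7 genes, Abcg1, Pltp, Mylip, Lpcat3 and Nr1h2 had pairwise Pearson r of 0.890 to 0.994 over the 6 libraries, and Lpl had −0.934 to −0.980 with each of them. Srebf1 had r between −0.0552 and 0.258 with the other 6. These are descriptions over 3 groups of 2 libraries that share their depth and treatment. Of 6928 genes with a group mean of 5 FPKM or more, the nearest profiles, by distance between centred log2 values over the 6 libraries, were Cep68, Kif20a and Man2b1 for Abcg1 (distances 0.105, 0.137 and 0.144). For Lpl they were Vasp, Grap and Adam8 (0.111, 0.162 and 0.232), and for Pltp Ascc1, Cpt2 and Srbd1 (0.145, 0.145 and 0.158). Nr1h2 was nearest to Plxnb2, Zbtb9 and Usp7 (0.0992, 0.119 and 0.125), and Mylip to Tmem106c, Ttf2 and Rnf166 (0.213, 0.267 and 0.281). Lpcat3 was nearest to Nudt9, B4galt1 and Prpf6 (0.0874, 0.0953 and 0.103), and Srebf1 to Ddx23, Ctbp1 and Tacc1 (0.0795, 0.111 and 0.114).

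The partners and coregulators of the receptors were mostly lower with LPS as deposited. Of 17 genes tested, Nr1h2 included, 15 fell and 0 rose with LPS over control, with a median of −0.66. Over all genes the shares were 48.9% and 14.2%, with a median of −0.40. Falls in the list numbered 4, with 2 rises, with equal medians or quantile normalization, and 15 at the same FPKM total. Of all 10014 genes 2648 fell and 2898 rose with equal medians, and 2660 and 2416 with quantile normalization. At the same FPKM total 5821 of them fell and 1088 rose. Fewer of the 17 fell without any 1 treated library and with the treated pairs averaged, settings in which fewer of all genes fell as well. Tbl1x, a subunit of the NCoR corepressor complex, read 17.2 and 18.4 FPKM with LPS plus Sal-B, 19.5 and 17.5 with LPS, and 35.6 in both control libraries (−0.91 ± 0.09 for LPS over control; limma, adjusted p = 0.000849). Nrip1, a corepressor gene, read 1.54 and 1.33 with LPS plus Sal-B, 1.30 and 1.37 with LPS, and 4.98 and 7.47 in control (−1.61 ± 0.18; limma, adjusted p = 0.00106). Med1, a subunit of the Mediator coactivator, fell by 0.64 ± 0.10 (limma, adjusted p = 0.00296), a call lost with equal medians or quantile normalization (−0.20 and −0.23). Ncor1, the corepressor itself, read 32.1 and 34.0 FPKM with LPS plus Sal-B and 17.5 and 17.7 with LPS, against 23.5 and 28.2 in control. It rose by 0.88 ± 0.11 in LPS plus Sal-B over LPS (limma, adjusted p = 0.00395), and by 1.02 to 1.12 under the 3 scalings. Without any 1 library the adjusted p of that rise was at most 0.0447. With LPS plus Sal-B over LPS there were 4 rises and 1 fall of 17, where 10.5% of all genes rose and 31.8% fell. Leaving out any 1 treated library left 1 rise. Rxrb, a retinoid X receptor gene chosen after its values were seen, read 10.5 and 11.5 with LPS plus Sal-B, 7.55 and 7.33 with LPS, and 8.92 and 10.4 in control. Its value in LPS plus Sal-B over LPS was 0.51 ± 0.11 (limma, adjusted p = 0.0164), and the call was lost without any 1 treated library.

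Other known targets of liver X receptors had 12 of 20 genes in the table and 11 tested. With LPS over control 8 fell and 0 rose, with a median of −1.13. Of all genes tested 48.9% fell and 14.2% rose there, with a median of −0.40. With equal medians or quantile normalization 6 of the 11 fell and 0 rose. Without any 1 library 7 to 10 fell. With LPS plus Sal-B over control 7 fell and 0 rose, where 58.8% of all genes fell and 14% rose. Smpdl3a, a sphingomyelinase-like enzyme, read 0.256 and 0.252 FPKM with LPS plus Sal-B, 0.642 and 0.443 with LPS, and 8.78 and 12.6 in control (−2.90 ± 0.18 for LPS over control; limma, adjusted p = 0.000279). It passed the filter on low values through control alone. Elovl5, an elongase of polyunsaturated fatty acids, fell by 1.53 ± 0.08 (limma, adjusted p = 0.000226), and Scd1, the desaturase that makes oleate, by 1.27 ± 0.10 (limma, adjusted p = 0.000418). Apoe, an acceptor of effluxed cholesterol chosen after its values were seen, read 2.26 and 2.18 FPKM with LPS plus Sal-B, 1.85 and 1.42 with LPS, and 1.97 and 3.41 in control (−0.47 ± 0.21; limma, adjusted p = 0.0990). Without control replicate 2 its fall passed, and under quantile normalization its sign turned, at 0.02.

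**Figure D4:**
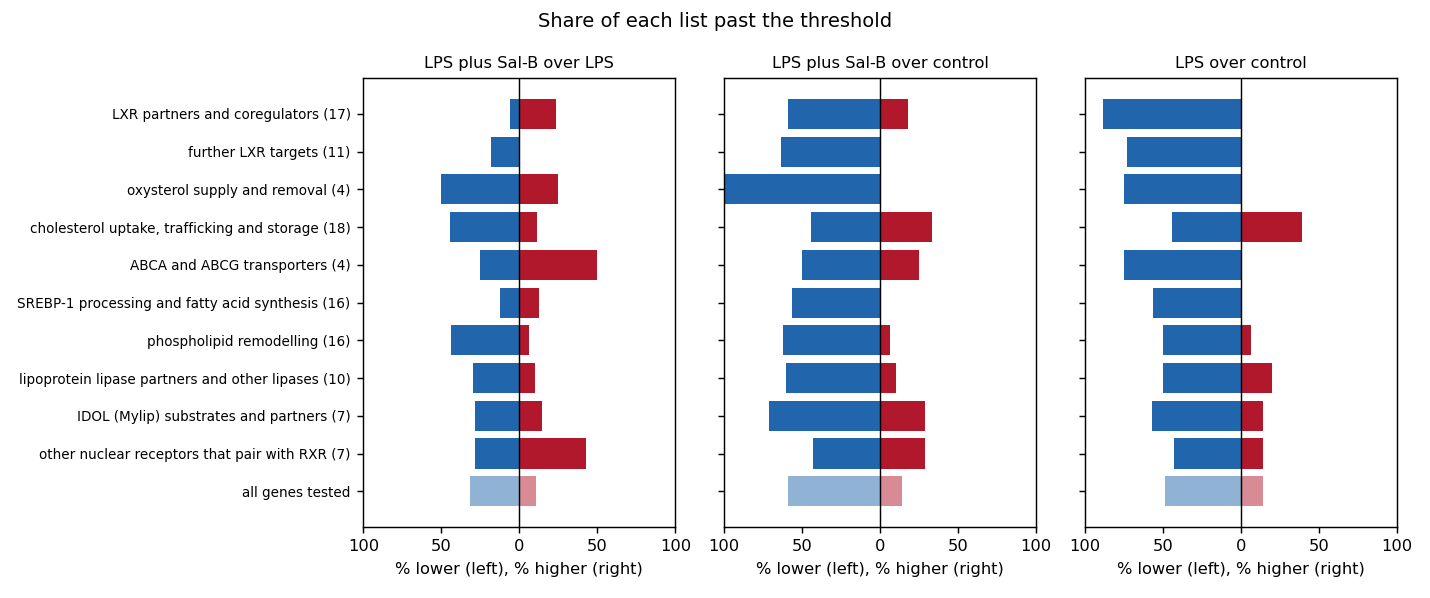
Percent of the genes tested in each list that were lower (left of 0) or higher (right of 0) at adjusted p under 0.05, with the number tested in brackets and the share of all genes tested in the lowest, paler bar. The other known targets had 8 of 11 genes lower and 0 higher in LPS over control, against 48.9% and 14.2% of all genes.

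Genes that supply or remove oxysterols, the ligands of the receptors, had 4 of 10 listed genes tested. Of these, 3 fell and 0 rose with LPS over control, where 48.9% of all genes fell and 14.2% rose. Cyp27a1, which makes 27-hydroxycholesterol, read 3.96 and 4.15 FPKM with LPS plus Sal-B, 4.54 and 4.12 with LPS, and 17.3 and 16.4 in control (−1.74 ± 0.10 for LPS over control; limma, adjusted p = 0.000235). Hsd3b7, a bile acid enzyme that acts on hydroxylated sterols, fell by 0.59 ± 0.12 with LPS over control (limma, adjusted p = 0.00893). That call was lost with equal medians or quantile normalization (−0.18 and −0.10), where 2 of the 4 genes fell. Ebp, a sterol isomerase of cholesterol synthesis, read 4.05 and 4.30 FPKM with LPS plus Sal-B, 7.49 and 8.36 with LPS, and 12 and 7.75 in control (−0.79 ± 0.20 for LPS plus Sal-B over LPS; limma, adjusted p = 0.0262), a call lost without any 1 treated library and under all 3 scalings.

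Among the genes listed with IDOL, Usp2, a deubiquitinase gene, and Ube2d1, a ubiquitin-conjugating enzyme gene, fell by 1.46 ± 0.15 and 1.46 ± 0.16 with LPS over control (limma, adjusted p = 0.000811 and 0.000990), and Ube2d2a, of the same enzyme family as Ube2d1, by 0.53 ± 0.09 (limma, adjusted p = 0.00408). At the same median the value of Ube2d2a was −0.03 and its call was lost. Of the 7 genes in that list, Mylip included, 4 fell and 1 rose with LPS over control. Over all genes 48.9% fell and 14.2% rose. The list had 3 falls and 2 rises at the same median and 4 and 2 under quantile normalization.

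The genes of cholesterol uptake, trafficking and storage were split, with 7 rises and 8 falls of 18 for LPS over control. Rises made up 14.2% and falls 48.9% of all genes in that comparison. This list had 8 rises with 5 falls at the same median and with 4 falls under quantile normalization, and 5 falls without any 1 treated library. Lipa, the lysosomal lipase that frees cholesterol from its esters, read 52.5 and 54.1 FPKM with LPS plus Sal-B, 57.1 and 53.2 with LPS, and 198 and 249 in control (−1.99 ± 0.13; limma, adjusted p = 0.000296). Tspo, a mitochondrial outer membrane protein that binds cholesterol, read 50.2 and 51.2 with LPS plus Sal-B, 99.7 and 89.7 with LPS, and 23 and 18 in control, a rise of 2.16 ± 0.13 for LPS over control (limma, adjusted p = 0.000285). Osbp, an oxysterol-binding protein of the Golgi, fell by 1.15 ± 0.10 (limma, adjusted p = 0.000465). Scarb1, the HDL receptor, read 13.6 and 14.1 with LPS plus Sal-B, 6.19 and 5.92 with LPS, and 7.40 and 7.43 in control. It rose by 1.07 ± 0.09 in LPS plus Sal-B over LPS (limma, adjusted p = 0.00194), and by 1.24 to 1.32 under the 3 scalings, with adjusted p of at most 0.0340 without any 1 library.

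The ABCA and ABCG transporter genes had 4 members tested, Abcg1 included. For LPS over control there were 3 falls and 0 rises, where 48.9% of all genes fell and 14.2% rose. Abca3, which loads phospholipid into lamellar bodies in lung, fell by 0.88 ± 0.11 with LPS over control (limma, adjusted p = 0.00138). Abca2, a transporter of the endolysosomal membrane, fell by 0.78 ± 0.12 with LPS over control (limma, adjusted p = 0.00312), a call lost under quantile normalization (−0.29). Abca7, a close relative of Abca1, read 8.56 and 8.70 FPKM with LPS plus Sal-B, 4.22 and 4.57 with LPS, and 4.07 and 5.57 in control. Its value in LPS plus Sal-B over LPS was 0.84 ± 0.15 (limma, adjusted p = 0.00906), lost without LPS replicate 2 or either LPS plus Sal-B library.

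In SREBP-1 processing and fatty acid synthesis 9 of 16 genes fell and 0 rose with LPS over control. Among all genes 48.9% fell and 14.2% rose. The list had 4 falls and 2 rises at the same median and 4 and 1 under quantile normalization. Without LPS replicate 3 the falls numbered 6. Fads1, the delta-5 desaturase, fell by 1.13 ± 0.10 (limma, adjusted p = 0.000579) and Scd2 by 1.27 ± 0.15 (limma, adjusted p = 0.00130). In LPS plus Sal-B over LPS, where Srebf1 was called higher, 2 of the 16 genes rose, Srebf1 being 1 of them, and 2 fell, where 10.5% of all genes rose and 31.8% fell. Under all 3 scalings there were 3 rises and 0 falls. Without either control library there were 6 of each, without either LPS library 1 rise and 0 falls, and without either LPS plus Sal-B library 0 of each. Elovl6, an elongase of saturated fatty acids, read 6.87 and 6.98 FPKM with LPS plus Sal-B, 2.42 and 3.88 with LPS, and 8.89 and 10.3 in control (0.96 ± 0.19 for LPS plus Sal-B over LPS; limma, adjusted p = 0.0126). That call was lost without either LPS plus Sal-B library.

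Phospholipid remodelling, the process of Lpcat3, had 8 falls and 1 rise of 16 for LPS over control, Lpcat3 being 1 of the falls. Of all genes 48.9% fell and 14.2% rose there. For LPS plus Sal-B over LPS the list had 7 falls and 1 rise, Lpcat3 again among the falls. In that comparison 31.8% of all genes fell and 10.5% rose. For LPS over control there were 5 of each at the same median, 4 falls and 3 rises under quantile normalization and 10 falls and 1 rise at the same FPKM total. For LPS plus Sal-B over LPS the scalings left 3 to 4 falls, and leaving out a treated library left 2 without LPS replicate 2 and 1 without any of the other 3. Mboat1, a lysophospholipid acyltransferase gene, read 0.123 and 0.162 FPKM with LPS plus Sal-B, 0.799 and 0.734 with LPS, and 5.43 and 4.25 in control (−1.72 ± 0.13 for LPS over control; limma, adjusted p = 0.000397), and passed the filter on low values through control alone. Lclat1, an acyltransferase gene of cardiolipin, read 1.13 and 1.09 with LPS plus Sal-B, 2.63 and 2.80 with LPS, and 7.26 and 7.28 in control. It fell by 0.82 ± 0.09 in LPS plus Sal-B over LPS (limma, adjusted p = 0.00314), with adjusted p of at most 0.0444 without any 1 library. Agpat5 and Agpat2, acyltransferase genes of phosphatidic acid synthesis, fell by 0.71 ± 0.09 and 0.86 ± 0.12 with LPS over control (limma, adjusted p = 0.00176 and 0.00202), and the call of Agpat5 was lost under quantile normalization (−0.27).

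The partners of lipoprotein lipase and other lipases had 5 falls and 2 rises of 10 for LPS over control, Lpl being 1 of the rises. The shares over all genes were 48.9% and 14.2%. With equal medians or quantile normalization the list had 3 falls and 2 rises. Without LPS replicate 3 there were 3 falls and 1 rise, and without LPS replicate 2 there were 4 and 1. Angptl4, a secreted inhibitor of lipoprotein lipase, was listed at 0 in both LPS plus Sal-B libraries, at 0 and 0.106 FPKM with LPS, and at 1.29 and 1.07 in control (−1.05 ± 0.11; limma, adjusted p = 0.000814). It passed the filter through control alone. Pnpla2, the triglyceride lipase of lipid droplets, read 6.88 and 7.05 with LPS plus Sal-B, 12 and 11.8 with LPS, and 32.3 and 44.2 in control (−1.59 ± 0.16; limma, adjusted p = 0.000723). Lmf2, of the family that folds lipases, fell by 1.13 ± 0.13 (limma, adjusted p = 0.00106). Abhd5, the activator of Pnpla2, read 1.80 and 1.62 FPKM with LPS plus Sal-B, 4.46 and 5.24 with LPS, and 5.88 and 4.17 in control. Its value in LPS plus Sal-B over LPS was −1.11 ± 0.17 (limma, adjusted p = 0.00602), lost without either LPS plus Sal-B library.

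Other nuclear receptors that pair with retinoid X receptors had 3 falls and 1 rise of 7 for LPS over control. Over all genes tested the shares were 48.9% and 14.2%. For LPS plus Sal-B over LPS there were 2 falls and 3 rises, where 31.8% of all genes fell and 10.5% rose. Without control replicate 2 there were 6 falls for LPS over control, and without any 1 treated library there were 1 fall and 1 rise for LPS plus Sal-B over LPS. Rarb, a retinoic acid receptor gene, read 1.26 and 1.24 FPKM with LPS plus Sal-B, 2.85 and 3.46 with LPS, and 17.4 and 18.8 in control. It fell by 2.20 ± 0.12 with LPS over control (limma, adjusted p = 0.000199) and by 0.88 ± 0.12 in LPS plus Sal-B over LPS (limma, adjusted p = 0.00421). Nr4a1, an immediate early receptor gene, rose by 0.92 ± 0.13 with LPS over control (limma, adjusted p = 0.00238), a gene below 1 FPKM in 1 control library. Nr4a2, of the same family, read 0.179 and 0.202 FPKM with LPS plus Sal-B, 0.358 and 0.351 with LPS, and 1.47 in both control libraries, and passed the filter through control alone (−0.87 ± 0.09 for LPS over control; limma, adjusted p = 0.000830). Thra, a thyroid hormone receptor gene that overlaps Nr1d1 on the other strand, read 16.1 and 16.3 FPKM with LPS plus Sal-B, 5.19 and 5.90 with LPS, and 5.50 and 8.36 in control. It rose by 1.40 ± 0.19 in LPS plus Sal-B over LPS (limma, adjusted p = 0.00441).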

How the data were processed

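RNA sequencing was run on 6 libraries of RAW264.7 cells. Per the labels' protocols, RNA was taken up in Trizol and sequenced on a HiSeq 4000 with TruSeq and KAPA stranded reagents; mRNA was enriched by poly(A) capture or by removal of rRNA, and which was used for a library is not given in the sources used here. Expression is in FPKM, computed by the authors and deposited as 1 table of 6 columns. The submitters' processing notes name cutadapt, HISAT2 2.0.5, StringTie and GRCm38. Whether libraries were scaled to each other is not given in the sources used here. Of the table's gene IDs, 99.7% were in GENCODE M21, and 91.4% had the same locus and strand there. Abcg1 was not among those with the same locus, so its transcript lengths and overlaps from M21 may differ from the authors' annotation.

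Tested genes reached 1 FPKM in 2 or more libraries. Values of log2(FPKM + 1) entered a single model of 3 groups, fitted with limma (version 3.58.1, R version 4.3.3) with a variance trend. Tests were two-sided, with Benjamini-Hochberg adjusted p < 0.05 as the threshold. The code was run on simulated data with independent errors and few changed genes. That setting differs from these data, so it cannot vouch for the calls. Because FPKM is not a count, no count model was used. The genes and lists were chosen with earlier results of these data known. Named genes were all members, up to 4 other genes per list with the smallest p in LPS over control or LPS plus Sal-B over LPS, and the 3 nearest profiles of each member; some genes that the rule names are not reported here. No replicate block was used. Alternatives changed the pseudocount, filter, scaling, block, libraries fitted, trend, averaging of treated pairs and minimum fold, or left out 1 library. Depth is not known, and its rough value was bounded by the range of low values searched.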

Additional observations from a re-analysis of the deposited data

How the results depend on the processing

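Against control, the calls of Abcg1, Pltp, Mylip and Lpl passed under all 17 alternatives in both comparisons. With each treated pair averaged, where the lone sample is assumed to vary like the control pair, limma called 1581 genes in LPS over control, 0 in LPS plus Sal-B over LPS (1477 at an unadjusted p under 0.05) and 4000 in LPS plus Sal-B over control, against 6319, 4238 and 7289 as reported. With a 2-fold minimum the counts were 2437, 816 and 3767. Under each of these settings 3 members were lower in LPS over control, against 5, and in LPS plus Sal-B over LPS 0 were higher and 0 lower, against 1 and 3. In LPS plus Sal-B over LPS, 0 members were lower at the same median, the same FPKM total and under quantile normalization, and 2 were higher when only the 2 groups compared were fitted. In LPS plus Sal-B over control, 2 members were higher with equal medians and 2 under quantile normalization. Leaving out 1 library gave 1043 to 6245 genes in LPS plus Sal-B over LPS, with 0 to 2 members higher and 0 to 3 lower, fewest without LPS plus Sal-B replicate 2. Reversed directions were Srebf1 in LPS over control (0.17 at the same median, 0.19 under quantile normalization) and, leaving out 1 library in LPS plus Sal-B over LPS, Nr1h2 (−0.037 to 0.14) and Mylip (−0.030 to 0.29). The cause was not tested.

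With the replicate number as a replicate block, 6086, 3822 and 7195 genes were called in the same order of comparisons, and in LPS plus Sal-B over LPS 0 members were higher and 1, Pltp, lower. Deviations of same-numbered libraries correlated at 0.0348, 0.00367 and 0.0140 across genes, so the numbers are not read as pairs. Depth limits Mylip most, and signal below the table's minimum was not analysed.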
